A study of Arabidopsis thaliana with 35 samples.

Results

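The genes described here are 150 late lowered genes, called members below, chosen from 32833 annotated genes by their behaviour in wild-type seedlings on estradiol: close to their starting level at 3 h and low at 8 h. For each gene, counts were divided by the library total to give counts per 1000000 counts (CPM), and log2(CPM + 1) was averaged over the WT libraries of each time. A gene qualified if its WT mean differed by less than 0.25 between 3 h and uninduced, by at least 0.5 between 8 h and uninduced, and was at least 5 CPM uninduced. Of 14861 genes at that level, 8616 were flat at 3 h and 410 of these were lower at 8 h. The 150 with the lowest 8 h values were taken. These WT values chose the genes, so they are given as a description and were not tested. The *er XVE:ER* and *XVE:EPFL4* lines were not used in the choice, and the tests below were made in them.

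The study addressed how the receptor kinase ERECTA (ER) contributes to vascular growth, and RNA was sequenced from whole 7-d-old seedlings, several pooled per library. Seedlings of 3 genotypes were sampled: the *er* mutant carrying *XVE:ER*, wild type carrying *XVE:EPFL4*, and untransformed wild type (WT). XVE is an estradiol-activated transcription factor that switches on the gene placed behind it, here *ER* or *EPFL4*, which encodes a secreted peptide of the family that ER family receptors bind. In the ER construct XVE is driven by the 35S promoter, which is active in most tissues. Each genotype was sampled uninduced and after 3 h and 8 h on estradiol plates, with 4 libraries per group and 3 for *er XVE:ER* at 3 h. All groups therefore share the growth conditions and age, WT received estradiol as the other lines did, and every *er XVE:ER* library lacks the endogenous ER function. The paper describes mock plates for 3 h, while the sample titles say only uninduced, and no mock group at 8 h is labelled. The labels do not give the clock hour of harvest, so the hour of day and the time on estradiol cannot be told apart.

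By role, 5 of the 150 members are light-harvesting or photosystem subunits and 4 assemble or protect photosystems, while 85 have other or no named roles. Light-harvesting proteins bind chlorophyll around the photosystems, and their nuclear genes are known for strong control by light and by the circadian clock, with transcript levels that change over the day. Members in light signalling include phytochrome partners and flowering-time repressors, and other members make pigments, isoprenoids and plastid lipids or move metabolites and ions across membranes.

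Library totals ran between 18224765 and 25089853 counts. *ER* stood at 671 to 1596 CPM in *er XVE:ER* at 8 h, against 44.6 to 65.7 CPM uninduced. *EPFL4* stood at 890 to 3276 CPM in *XVE:EPFL4* at 8 h, against 1.34 to 3.23 CPM uninduced. Clock genes changed with time in both lines: 4 of 11 were lower and 6 were higher at 8 h than uninduced in *er XVE:ER*, and 4 were lower and 6 higher in *XVE:EPFL4*. *LHY*, a morning clock gene, changed by -8.16 on the log2 scale in *er XVE:ER* and by -8.87 in *XVE:EPFL4*. Some libraries stood apart from their groups. Replicate 4 of uninduced *er XVE:ER* had 21.6 CPM of *LHY*, against 211 to 232 CPM in the other 3 libraries, and replicate 4 of WT at 3 h had 10.3 CPM, against 31.7 to 40.6 CPM. Among the 8 h groups, *PRR5*, a later clock gene, stood at 47.3 CPM in *er XVE:ER* replicate 1, against 87.6 to 116 CPM in the others. In *XVE:EPFL4* at 8 h it stood at 41.0 CPM in replicate 1, against 119 to 124 CPM. In WT at 8 h it stood at 29.2 and 35.7 CPM in replicates 2 and 3, against 75.0 and 84.7 CPM in replicates 4 and 1.

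In WT, the 8 h values of the members lay between -4.48 and -0.89 on the log2(CPM + 1) scale relative to uninduced (median -1.20), and 113 of 150 were at least 2-fold lower. Uninduced WT levels ran between 5.13 and 6829 CPM (median 45.3 CPM). All WT libraries at 8 h lay below all uninduced WT libraries for 139 members. The same WT values chose the members, so this count partly follows from the choice. Its share over all genes was not counted. At the edge of the choice, *CYP71B12*, *MPK15* and *AT3G10405* were just inside at -0.892, -0.891 and -0.891, and *AT1G03440*, *LDOX* and *AT2G28400* were just outside at -0.887, -0.887 and -0.882. RefSeq placed 37 members on chromosome 1, 31 on chromosome 2, 29 on chromosome 3, 16 on chromosome 4 and 37 on chromosome 5, and annotated 149 as protein coding. The list depended on 1 library more than on any other: with WT 3 h replicate 4 left out, 52 members were no longer flat at 3 h and 87 of 150 were chosen again. With WT 8 h replicates 2 and 3 both left out, 100 were chosen again, 143 were still below 0 and 16 lay above -0.5.

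The members also fell in the lines that the choice did not use. In *er XVE:ER*, 109 of 150 were lower at 8 h than uninduced (edgeR's quasi-likelihood test, adjusted p under 0.05), where 10.4% of all 20329 genes tested were lower. *AT2G29300* alone was higher, where 12.1% of all genes were higher, and this call was lost under several alternatives (adjusted p = 0.00701 to 0.324). In *XVE:EPFL4*, 140 of 150 were lower, where 20.2% of 20356 genes were lower. No member was called higher there, where 22.8% of genes were higher. DESeq2 also called 0 members higher, where 4560 of 25684 genes were. At an unadjusted p under 0.05, 0 members were higher, where 10319 of 20356 genes passed in either direction. RNA came from whole seedlings, so fewer cells of a type and less RNA per cell cannot be told apart. The paper describes biological repeats at each time point, while the labels do not say that the libraries of a group came from separate cultures. The p-values measure the spread between these libraries.

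The median log2 fold change of the members at 8 h was -1.0 in *er XVE:ER* (quartiles -1.36 and -0.68), against -0.01 over all genes tested. In *XVE:EPFL4* it was -1.18 (quartiles -1.63 and -0.92), against 0.03 over all genes. Members called lower with an estimate at least 2-fold lower numbered 69 in *er XVE:ER* and 98 in *XVE:EPFL4*. The matching share over all genes was not counted. Counting libraries in place of the model, all 8 h libraries lay below all uninduced libraries for 84 members in *er XVE:ER*, where this held for 9.17% of genes. In *XVE:EPFL4* it held for 135 members and for 13.1% of genes. The members had been taken from genes flat at 3 h in WT with at least 5 CPM. Among the other genes of that kind, 469 of 8465 were lower at 8 h in *er XVE:ER* and 1315 of 8466 in *XVE:EPFL4*.

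**Figure D1:**
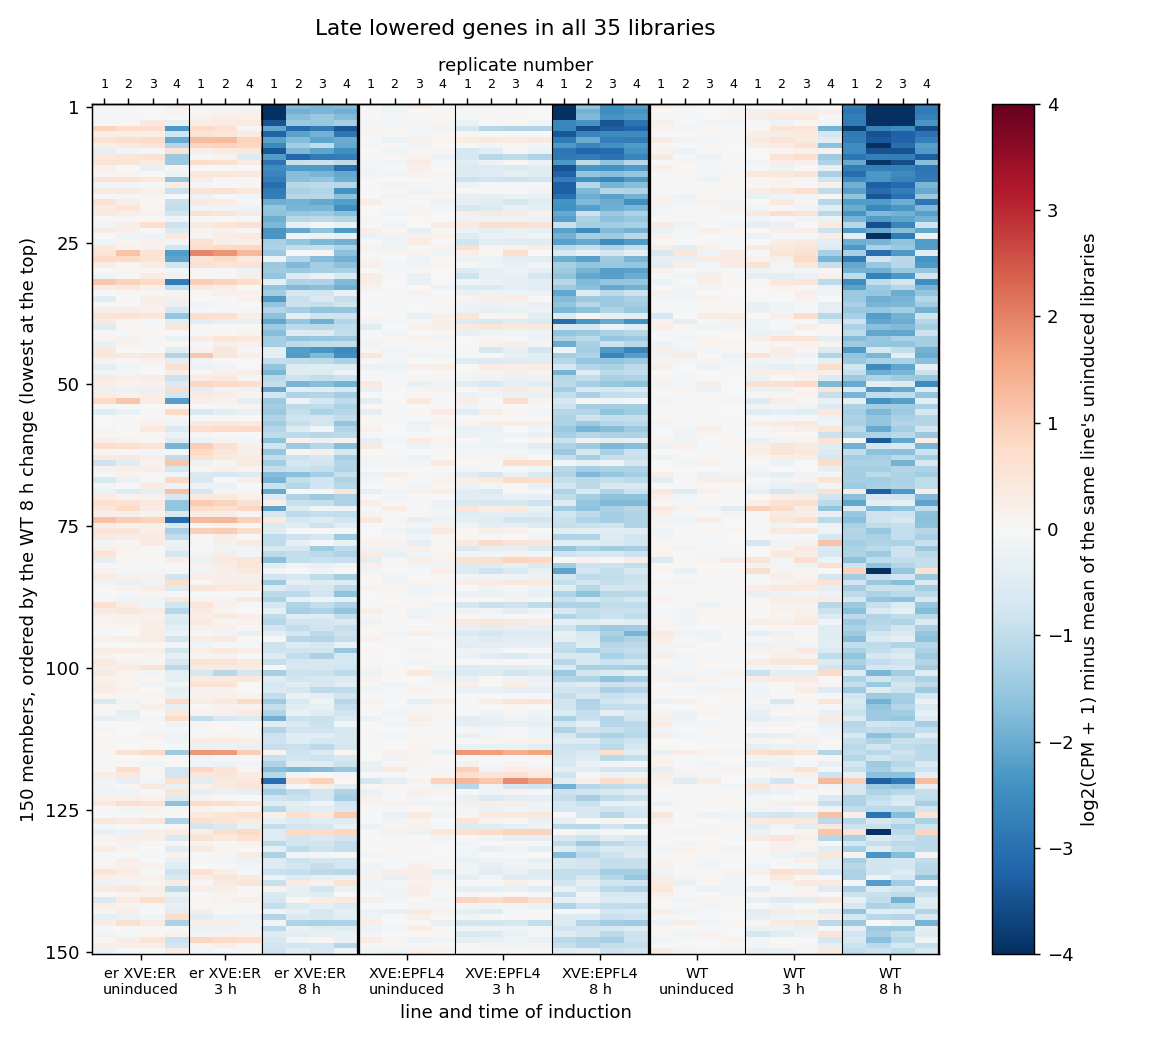
Levels of the 150 members in all 35 libraries, as log2(CPM + 1) minus the mean of the uninduced libraries of the same line; each line of cells is a member, ordered by its WT 8 h value, and each column a library. The 8 h columns are blue in all 3 genotypes (the WT ones by the choice of members), and replicate 4 of uninduced *er XVE:ER* differs from the other 3 libraries of its group.

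Calls overlapped between the lines: 107 members were lower in both, where 8.46% of the 20136 genes tested in both were. A further 33 were lower in *XVE:EPFL4* alone and 2 in *er XVE:ER* alone, *APD7* and *ADS1*. The remaining 8, *RAB18*, *AOC1*, *AT5G40590*, *AGL20*, *TZF5*, *AT1G66540*, *KMD1* and *AT1G50290*, passed the test in neither. Across the 150 members the log2 fold changes of *er XVE:ER* and *XVE:EPFL4* had a Pearson r of 0.793, given as a description, since genes are not independent replicates and all libraries share the sampling times. The estimated fall was smaller in *er XVE:ER* for 117 of 150, a count that depended on replicate 4. When both lines were fitted together, the difference *er XVE:ER* minus *XVE:EPFL4* was negative for 32 members. It was negative for 55 without uninduced *er XVE:ER* replicate 4, and for 60 without replicate number 4 in every group.

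**Figure D2:**
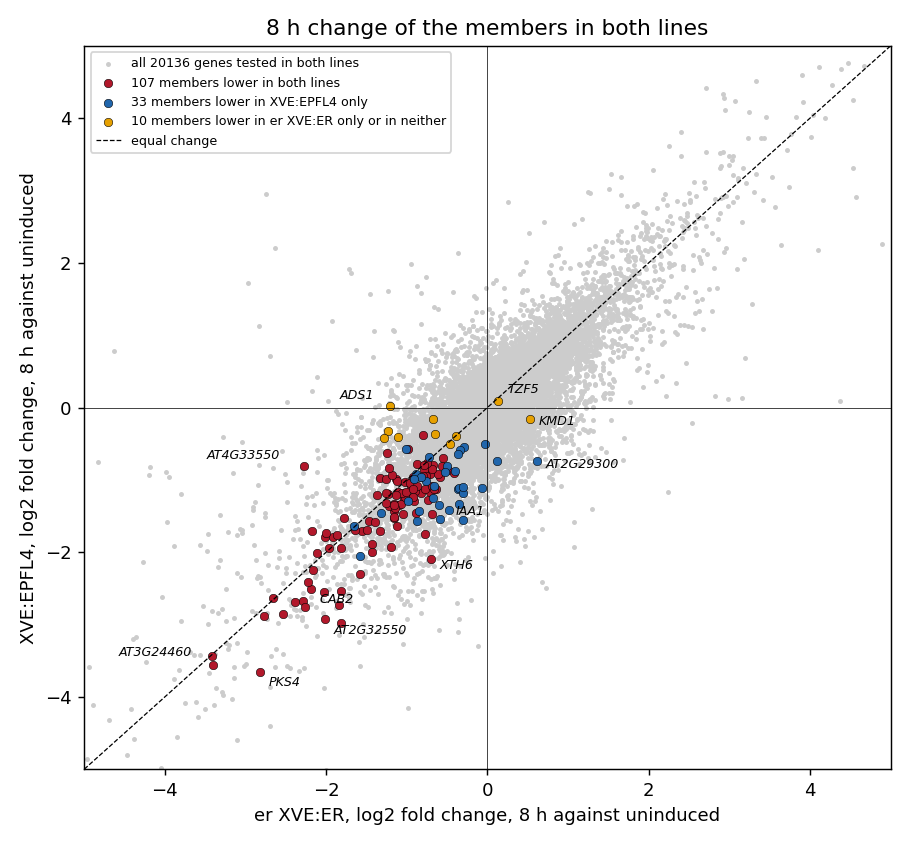
Log2 fold change at 8 h against uninduced in *er XVE:ER* (horizontal axis) and *XVE:EPFL4* (vertical axis); grey points are all 20136 genes tested in both lines, coloured points are the members by their calls, and the dashed line marks equal change. Genes beyond 5 in either direction lie outside the axes; of the members, 107 were lower in both lines.

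Some of the libraries that stood apart by their clock genes also did so by the members. The mean log2(CPM + 1) over the 150 members was 4.36 in *er XVE:ER* 8 h replicate 1, against 4.63 to 4.78 in the other 3 libraries at 8 h. In uninduced *er XVE:ER* it was 5.20 in replicate 4, against 5.76 to 5.79 in the others, and replicate 4 was the lowest of its group for 104 members. In *XVE:EPFL4* at 8 h, replicate 1 did not stand apart by this mean, at 4.41 against 4.49 to 4.60 in the others. The part of these libraries in the calls was measured by leaving them out. Without uninduced replicate 4, 122 members were lower in *er XVE:ER*, and over all genes 2919 of 20266 were lower, against 2106 of 20329 with it. Without that library and 8 h replicate 1, 125 were lower and 3 were higher, among 3159 lower and 3502 higher over all genes. In *XVE:EPFL4*, 139 were lower without 8 h replicate 1, among 4127 lower of 20417 genes.

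Members were sorted into groups by role after the list was known, and the group with the lowest median was that of light-harvesting and photosystem subunits. In *er XVE:ER* 4 of 5 were lower (median log2 fold change -2.02), and in *XVE:EPFL4* 5 of 5 (median -2.51). *CAB2* (AT1G29920), which encodes a major chlorophyll a/b-binding protein of photosystem II, had 137, 2098, 2016 and 2118 CPM in *er XVE:ER* at 8 h, against 6765, 6818, 7101 and 8184 CPM uninduced. In *XVE:EPFL4*, *CAB2* had 75.6, 2341, 1250 and 1518 CPM at 8 h, against 6774, 6224, 8198 and 7173 CPM uninduced. All 8 h libraries were below all uninduced ones, and replicate 1 was far below the others at 8 h in both lines. The log2 fold change was -2.19 ± 0.58 (SE) in *er XVE:ER* (edgeR's quasi-likelihood test, adjusted p = 0.0172) and -2.51 ± 0.63 in *XVE:EPFL4* (adjusted p = 0.00531). In exact two-sided permutation tests both lines gave p = 0.0286 for *CAB2*, the smallest that 4 against 4 libraries allow. In WT, *CAB2* had 977, 87.9, 103 and 970 CPM at 8 h, against 7810, 6292, 6439 and 6775 CPM uninduced. At 3 h it had kept to 6738 to 6966 CPM in *er XVE:ER*, 6521 to 6842 CPM in *XVE:EPFL4* and 6354 to 6905 CPM in WT.

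*LHCB2.1* (AT2G05100) and *LHCB2.2* (AT2G05070) encode near-identical light-harvesting proteins that are phosphorylated when light energy is shared out between the photosystems, and they lie on chromosome 2 with 22518 bases between them. How the authors' counting divides reads between such copies is not given in the sources used here, so their separate values are uncertain. *LHCB2.1* had 139, 1275, 1480 and 1244 CPM in *er XVE:ER* at 8 h, against 4143, 4091, 4229 and 4167 CPM uninduced. In *XVE:EPFL4*, *LHCB2.1* had 91.2, 1270, 819 and 897 CPM at 8 h, against 4524, 4003, 4187 and 4461 CPM uninduced. Its uninduced libraries lay within a narrow range and replicate 1 was again the lowest at 8 h. For *LHCB2.1* the log2 fold change was -2.02 ± 0.50 (SE) in *er XVE:ER* (edgeR's quasi-likelihood test, adjusted p = 0.0122) and -2.54 ± 0.52 in *XVE:EPFL4* (adjusted p = 0.00125). *LHCB2.2* had 103, 947, 1029 and 927 CPM in *er XVE:ER* at 8 h, against 3457, 3493, 3653 and 3879 CPM uninduced. In *XVE:EPFL4*, *LHCB2.2* had 63.9, 940, 620 and 679 CPM at 8 h, against 3600, 3212, 3511 and 3727 CPM uninduced. The change of *LHCB2.2* was -2.28 ± 0.50 in *er XVE:ER* and -2.67 ± 0.53 in *XVE:EPFL4*, much like that of its copy. In WT at 8 h, replicates 2 and 3 were the low ones, with 128 and 131 CPM of *LHCB2.1*, against 580 and 603 CPM in the other libraries. Their *LHCB2.2* levels were 97.4 and 106 CPM, against 452 and 473 CPM.

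*LHCB4.2* (AT3G08940), a minor antenna protein of photosystem II, had 352, 1342, 1418 and 1342 CPM in *er XVE:ER* at 8 h, against 2597, 2692, 2834 and 3697 CPM uninduced. In *XVE:EPFL4*, *LHCB4.2* had 301, 1291, 790 and 891 CPM at 8 h, against 2851, 2607, 3106 and 2948 CPM uninduced. The groups did not overlap in either line. Its log2 fold change was -1.43 ± 0.35 (SE) in *er XVE:ER* (edgeR's quasi-likelihood test, adjusted p = 0.0115) and -1.88 ± 0.32 in *XVE:EPFL4* (adjusted p = 0.000357). *PSAD-2*, a stromal subunit of photosystem I, was at -0.67 ± 0.28 in *er XVE:ER* (adjusted p = 0.108) and lower in *XVE:EPFL4* (-1.09 ± 0.23). The rest of the antenna did not all pass the test. Of 29 tested light-harvesting and photosystem genes that are not members, 3 were lower in *er XVE:ER* and 9 in *XVE:EPFL4*. *LHCB2.3* was lower in *er XVE:ER* (-2.98) and *XVE:EPFL4* (-3.37), and so was *LHCB3* (-1.14 in *er XVE:ER* and -1.49 in *XVE:EPFL4*). *LHCB1.2*, a near-identical neighbour of *CAB2*, was at -0.33 in *er XVE:ER* (adjusted p = 0.585) and -0.77 in *XVE:EPFL4* (adjusted p = 0.132). The division of reads between *CAB2* and *LHCB1.2* is as uncertain as for the *LHCB2* pair, so their separate values and the contrast between them are uncertain too.

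In the group of pigments, isoprenoids and plastid lipids, 6 of 8 members were lower in *er XVE:ER* (median -1.05) and 8 of 8 in *XVE:EPFL4* (median -1.30). *CRD1* (AT3G56940), a subunit of the cyclase that closes the fifth ring of chlorophyll, had 395, 702, 727 and 659 CPM in *er XVE:ER* at 8 h, against 1588, 1596, 1602 and 1362 CPM uninduced. In *XVE:EPFL4*, *CRD1* had 348, 676, 515 and 561 CPM at 8 h, against 1732, 1520, 1602 and 1629 CPM uninduced. Replicate 1 was the lowest at 8 h in both lines, and no library at 8 h reached an uninduced one. For *CRD1* the log2 fold change was -1.33 ± 0.18 (SE) in *er XVE:ER* (edgeR's quasi-likelihood test, adjusted p = 0.00031) and -1.71 ± 0.18 in *XVE:EPFL4* (adjusted p = 5.27e-06). *CLA1* (AT4G15560) encodes the first enzyme of the plastid isoprenoid pathway. It had 270, 379, 435 and 240 CPM in *er XVE:ER* at 8 h, against 715, 742, 802 and 624 CPM uninduced. In *XVE:EPFL4*, *CLA1* had 294, 256, 322 and 339 CPM at 8 h, against 734, 710, 604 and 789 CPM uninduced. Here replicate 1 was not set apart, and the change was -1.16 ± 0.17 in *er XVE:ER* and -1.33 ± 0.10 in *XVE:EPFL4*.

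The other members of that group act in nearby steps. *GGR*, the geranylgeranyl reductase that supplies the phytol tail of chlorophyll and tocopherol, was at -0.94 ± 0.13 in *er XVE:ER* and -1.09 ± 0.12 in *XVE:EPFL4*. *G-TMT*, which methylates tocopherols, was at -1.97 ± 0.25 in *er XVE:ER* and -1.94 ± 0.14 in *XVE:EPFL4*. *DGD1*, a galactolipid synthase, was at -1.06 ± 0.22 in *er XVE:ER* and -1.19 ± 0.08 in *XVE:EPFL4*, and *ORANGE*, a promoter of carotenoid accumulation, at -1.04 ± 0.21 in *er XVE:ER* and -1.26 ± 0.11 in *XVE:EPFL4*. All 4 passed the test in both lines. *VTC2*, which acts in ascorbate synthesis, was at -0.84 ± 0.42 in *er XVE:ER* (adjusted p = 0.167) and lower in *XVE:EPFL4* (-1.43 ± 0.23). *VTE5*, a phytol kinase, was at -0.77 ± 0.27 in *er XVE:ER* (adjusted p = 0.062) and lower in *XVE:EPFL4* (-1.01 ± 0.10). Other genes of chlorophyll synthesis changed in both directions. Of the 20 tested that are not members, 4 were lower and 7 higher in *er XVE:ER*, and 4 were lower and 8 higher in *XVE:EPFL4*. Of 11 such genes of carotenoid and isoprenoid synthesis, 3 were lower and 1 higher in *er XVE:ER*, and 7 were lower and 1 higher in *XVE:EPFL4*. Summed over 22 chlorophyll genes, members included, levels were 4977 to 6501 CPM at 8 h in *er XVE:ER*, against 7397 to 9731 CPM uninduced. In *XVE:EPFL4* that sum was 4797 to 5991 CPM, against 8562 to 9826 CPM. The sum of 13 carotenoid and isoprenoid genes was 1784 to 2372 CPM at 8 h in *er XVE:ER*, against 2433 to 3958 CPM. In *XVE:EPFL4* it was 1872 to 2083 CPM, against 3301 to 3892 CPM. All 4 members that assemble or protect photosystems were lower in both lines. They are *HCF244*, needed for photosystem II assembly, *GPX1*, a plastid peroxidase, *STN7*, the kinase of state transitions, and *CAO*, which here is the chloroplast signal recognition particle component AT2G47450.

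Upstream sequences were compared because these members moved together. The window ran from 250 bases before to 50 bases after the RefSeq gene start (TAIR10.1) and could be read for 149 members and 27443 genes in all. The letters GCCAC, known as SORLIP1 and searched on both strands, stood in 52 of 149 member windows (34.9%), against 18.9% of all windows and 18.4% of the 8433 windows of non-member genes that were flat at 3 h and at least 5 CPM in uninduced WT. These are shares of letters and not of bound sites. The 200 bases before the start are shown for *CAB2*, *LHCB2.1*, *LHCB4.2* and *GGR*, 4 chlorophyll-related members described above whose windows hold it. The letters GCCAC, or GTGGC where the match is on the other strand, are in capitals.
CAB2 (chr1:10475970-10476169, minus strand): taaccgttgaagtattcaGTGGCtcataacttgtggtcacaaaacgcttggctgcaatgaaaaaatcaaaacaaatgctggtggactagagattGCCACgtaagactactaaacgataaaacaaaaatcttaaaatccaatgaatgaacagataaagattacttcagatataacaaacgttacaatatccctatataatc
LHCB2.1 (chr2:1824481-1824680, minus strand): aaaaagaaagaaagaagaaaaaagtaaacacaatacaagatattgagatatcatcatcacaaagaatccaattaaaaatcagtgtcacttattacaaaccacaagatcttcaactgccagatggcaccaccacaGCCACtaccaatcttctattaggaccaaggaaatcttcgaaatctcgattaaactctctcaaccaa
LHCB4.2 (chr3:2717357-2717556, plus strand): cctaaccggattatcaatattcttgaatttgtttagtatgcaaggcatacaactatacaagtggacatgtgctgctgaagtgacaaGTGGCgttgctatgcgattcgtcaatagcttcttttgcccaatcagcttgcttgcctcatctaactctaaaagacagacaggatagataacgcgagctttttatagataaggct
GGR (chr1:27990965-27991164, plus strand): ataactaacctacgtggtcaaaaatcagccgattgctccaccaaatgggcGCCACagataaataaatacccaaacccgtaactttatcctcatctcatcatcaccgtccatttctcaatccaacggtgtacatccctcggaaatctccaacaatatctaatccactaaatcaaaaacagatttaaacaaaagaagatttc
*CAB2* held 2 matches, starting 182 and 106 bases before the gene start. The matches of *LHCB2.1*, *LHCB4.2* and *GGR* started 66, 114 and 150 bases before theirs.

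Light signalling and photoperiod was the largest named group. Of its 14 members, 10 were lower in *er XVE:ER* (median -0.80) and 13 in *XVE:EPFL4* (median -1.54). *PKS4* (AT5G04190), a phytochrome kinase substrate protein that acts in phototropism, had 0.632, 3.90, 2.89 and 2.1 CPM in *er XVE:ER* at 8 h, against 11.9, 14.6, 15.3 and 24.2 CPM uninduced. In *XVE:EPFL4*, *PKS4* had 1.41, 1.01, 1.08 and 2.42 CPM at 8 h, against 16.9, 15.1, 18 and 18.4 CPM uninduced. All 8 h libraries held under 4 CPM, and the groups stayed apart. For *PKS4* the log2 fold change was -2.82 ± 0.39 (SE) in *er XVE:ER* (edgeR's quasi-likelihood test, adjusted p = 0.000323) and -3.65 ± 0.22 in *XVE:EPFL4* (adjusted p = 2.02e-08). The difference between the lines was 0.83 ± 0.46 (adjusted p = 0.575), with a 95% interval of -0.08 to 1.74.

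*PIL6* (AT3G59060), the phytochrome-interacting factor also called PIF5, had 34.1, 104, 107 and 74.1 CPM in *er XVE:ER* at 8 h, against 223, 225, 252 and 234 CPM uninduced. In *XVE:EPFL4*, *PIL6* had 30.8, 66.3, 56.0 and 69.5 CPM at 8 h, against 262, 234, 265 and 273 CPM uninduced. Replicate 1 was lowest at 8 h in both lines. For *PIL6* the log2 fold change was -1.58 ± 0.27 (SE) in *er XVE:ER* (edgeR's quasi-likelihood test, adjusted p = 0.00159) and -2.30 ± 0.21 in *XVE:EPFL4* (adjusted p = 8.75e-07). *CDF3* (AT3G47500), a Dof factor of the family that represses the flowering regulator CONSTANS, had 9.53, 19.1, 17.1 and 14.9 CPM in *er XVE:ER* at 8 h, against 68.9, 68.5, 64.6 and 55.1 CPM uninduced. In *XVE:EPFL4*, *CDF3* had 6.58, 22.8, 21.7 and 23.8 CPM at 8 h, against 63.1, 66.2, 78.6 and 76.1 CPM uninduced. Its change was -2.11 ± 0.18 in *er XVE:ER* and -2.01 ± 0.28 in *XVE:EPFL4*. In WT at 3 h, *CDF3* had 93.1, 92.1, 98.1 and 27.5 CPM, so that the flat WT mean combined 3 raised libraries with the low replicate 4. *CDF1*, of the same family, was at -1.78 ± 0.21 in *er XVE:ER* and -1.52 ± 0.22 in *XVE:EPFL4*, and *LNK1*, a clock-associated coactivator, at -1.91 ± 0.36 in *er XVE:ER* and -1.78 ± 0.32 in *XVE:EPFL4*. *PIL6* and *CDF3* were chosen for this detail after their values were seen, as were *CDF1* and *LNK1*.

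The photoreceptor gene *CRY1*, which encodes the blue-light receptor cryptochrome 1, was lower in *er XVE:ER* (-0.68 ± 0.16) and *XVE:EPFL4* (-1.08 ± 0.08). *STO*, a B-box factor of light signalling, was at -0.74 ± 0.21 in *er XVE:ER* and -1.11 ± 0.24 in *XVE:EPFL4*, and *PKS2*, a relative of *PKS4*, at -1.13 ± 0.30 in *er XVE:ER* and -1.64 ± 0.11 in *XVE:EPFL4*. *DOT3*, of the NPH3 family, was at -0.30 ± 0.27 in *er XVE:ER* (adjusted p = 0.451) and lower in *XVE:EPFL4* (-1.56 ± 0.27). *AGL20*, the floral integrator SOC1, passed the test in neither line (-0.39 ± 0.27 in *er XVE:ER* and -0.40 ± 0.16 in *XVE:EPFL4*).

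Of 11 membrane transport members, 8 were lower in *er XVE:ER* (median -1.58) and 11 in *XVE:EPFL4* (median -1.70). *FRO6* (AT5G49730), a leaf ferric reductase, had 23.6, 56.5, 71.7 and 35 CPM in *er XVE:ER* at 8 h, against 174, 192, 215 and 64.4 CPM uninduced. In *XVE:EPFL4*, *FRO6* had 32.1, 25.3, 29.0 and 32.9 CPM at 8 h, against 174, 160, 146 and 164 CPM uninduced. In *er XVE:ER* the groups overlapped, since uninduced replicate 4 was below 8 h replicate 3, and in *XVE:EPFL4* they lay far apart. For *FRO6* the log2 fold change was -1.82 ± 0.37 (SE) in *er XVE:ER* (edgeR's quasi-likelihood test, adjusted p = 0.00404) and -2.54 ± 0.09 in *XVE:EPFL4* (adjusted p = 1.49e-10). The two-sided exact test by permutation gave *FRO6* p = 0.0571 in *er XVE:ER*. *PPT2* (AT3G01550), a plastid phosphoenolpyruvate transporter, had 4.38, 10.4, 11.5 and 8.36 CPM in *er XVE:ER* at 8 h, against 50.9, 53.7, 48.0 and 11.6 CPM uninduced. In *XVE:EPFL4*, *PPT2* had 6.53, 8.58, 7.33 and 9.39 CPM at 8 h, against 50.6, 51.2, 51.4 and 48.4 CPM uninduced. Its change was -2.27 ± 0.41 in *er XVE:ER* and -2.76 ± 0.11 in *XVE:EPFL4*, and in *XVE:EPFL4* it was already lower at 3 h (-0.89 ± 0.11). *NIP6;1*, a boric acid channel, was at -1.87 ± 0.22 in *er XVE:ER* and -1.77 ± 0.13 in *XVE:EPFL4*, and *ZIF2*, a vacuolar zinc transporter, at -0.92 ± 0.11 in *er XVE:ER* and -1.24 ± 0.09 in *XVE:EPFL4*. *NPF6.4*, a nitrate transporter, was at -1.66 ± 0.58 in *er XVE:ER* (adjusted p = 0.0581) and lower in *XVE:EPFL4* (-1.64 ± 0.14).

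**Figure D3:**
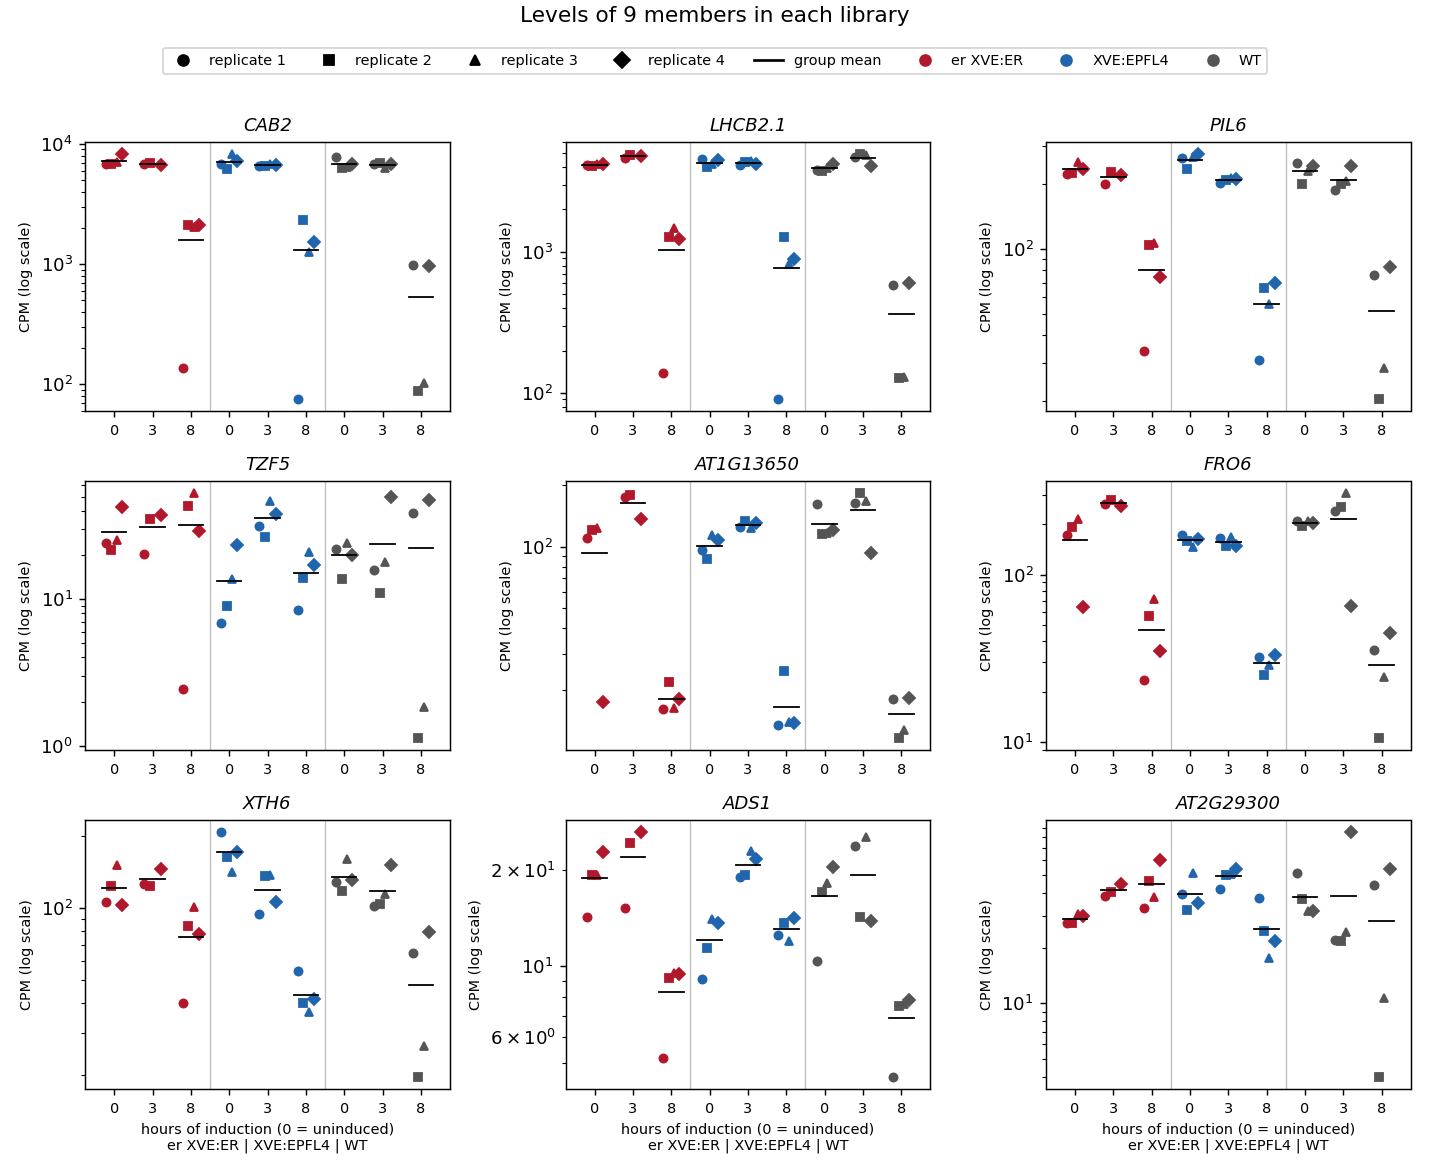
CPM of 9 members in each library on a log scale, by line and hours of induction; marker shapes give the replicate number and black bars the group means. *CAB2*, *LHCB2.1* and *PIL6* are lowest at 8 h in replicate 1 of *er XVE:ER* and *XVE:EPFL4* and in replicates 2 and 3 of WT, and *AT1G13650* is low in replicate 4 of uninduced *er XVE:ER*.

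The G-box, CACGTG, which many light and abscisic acid response factors bind, stood in 22 of 149 member windows (14.8%), against 7.68% of all 27443 windows and 8.34% of the 8433 windows of flat non-member genes. In 8 members a GCCAC overlapped a G-box, and 61 members (40.9%) held either, against 23.3% of all windows. The 200 bases before the start are shown for *FRO6*, *PIL6* and *CRD1*, the G-box members whose values per library are given here. The capitals mark CACGTG.
FRO6 (chr5:20204596-20204795, minus strand): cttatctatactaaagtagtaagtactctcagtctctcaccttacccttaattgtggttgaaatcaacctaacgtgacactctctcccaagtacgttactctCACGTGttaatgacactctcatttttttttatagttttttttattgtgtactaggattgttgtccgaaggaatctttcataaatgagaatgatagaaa
PIL6 (chr3:21830838-21831037, minus strand): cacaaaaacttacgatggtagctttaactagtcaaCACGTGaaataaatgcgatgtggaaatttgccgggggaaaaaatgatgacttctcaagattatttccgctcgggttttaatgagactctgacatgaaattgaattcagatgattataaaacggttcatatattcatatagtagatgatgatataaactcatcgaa
CRD1 (chr3:21076305-21076504, plus strand): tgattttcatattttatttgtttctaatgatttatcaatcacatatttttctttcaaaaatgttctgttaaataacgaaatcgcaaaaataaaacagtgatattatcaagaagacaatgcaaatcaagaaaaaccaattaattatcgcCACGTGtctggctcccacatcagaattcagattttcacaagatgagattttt
The matches started 98, 165 and 52 bases before the gene start. The TELO box AAACCCTA was in 0 member windows, against 6.22% of all windows and 5.06% of those of flat non-member genes. The evening element AAATATCT, a clock-related motif, was in 4.70% of member windows, against 5.65% of all and 4.35% of those of flat non-member genes, so that the members lay between the 2 backgrounds. The site II element TGGGCC was in 13.4%, against 15.5% of all windows and 22.6% of those of flat non-member genes. The I-box core GATAAG was in 17.4%, against 14.6% of all windows and 14% of those of flat non-member genes. The HUD motif CACATG was in 16.8%, against 12.9% of all and 11.4% of flat non-member genes.

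In carbon and specialised metabolism, 8 of 11 members were lower in *er XVE:ER* (median -1.07) and 10 of 11 in *XVE:EPFL4* (median -1.34). *DFR*, an enzyme of anthocyanin synthesis, was at -1.81 ± 0.51 in *er XVE:ER* (edgeR's quasi-likelihood test, adjusted p = 0.0232) and -1.95 ± 0.30 in *XVE:EPFL4* (adjusted p = 0.000141). Its call in *er XVE:ER* was lost without uninduced replicate 1, 2 or 3 or 8 h replicate 2, 3 or 4 (adjusted p up to 0.0644). *SNG1*, which makes sinapoylmalate, was at -0.88 ± 0.22 in *er XVE:ER* and -1.45 ± 0.10 in *XVE:EPFL4*, and the adjacent *scpl10* at -1.64 ± 0.44 in *er XVE:ER* and -1.70 ± 0.17 in *XVE:EPFL4*. *SS2*, a starch synthase, was at -1.10 ± 0.25 in *er XVE:ER* and -1.16 ± 0.10 in *XVE:EPFL4*. Of the 22 tested genes of flavonoid and phenylpropanoid synthesis that are not members, 7 were lower and 2 higher in *er XVE:ER*, and 13 were lower and 2 higher in *XVE:EPFL4*.

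Hormone and growth members had the smallest median changes of the role groups: 6 of 12 were lower in *er XVE:ER* (median -0.63) and 9 of 12 in *XVE:EPFL4* (median -0.86). *RGL3* (AT5G17490), a DELLA repressor of gibberellin signalling, had 4.56, 6.69, 6.83 and 5.87 CPM in *er XVE:ER* at 8 h, against 17.0, 14.4, 12 and 9.98 CPM uninduced. It had 7.66, 5.52 and 7.75 CPM at 3 h in that line, already below all uninduced libraries. In *XVE:EPFL4*, *RGL3* had 3.70, 6.85, 7.93 and 8.96 CPM at 8 h, against 10.3, 12.7, 16.4 and 9.68 CPM uninduced. It was called lower at 8 h in *er XVE:ER* (-1.18 ± 0.19) and *XVE:EPFL4* (-0.94 ± 0.23). *ACS10*, a member of the ACC synthase family, was at -1.16 ± 0.13 in *er XVE:ER* and -1.53 ± 0.10 in *XVE:EPFL4*. Of 12 other early auxin genes tested in *er XVE:ER*, 6 were lower, and of 13 tested in *XVE:EPFL4*, 9 were lower.

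**Figure D4:**
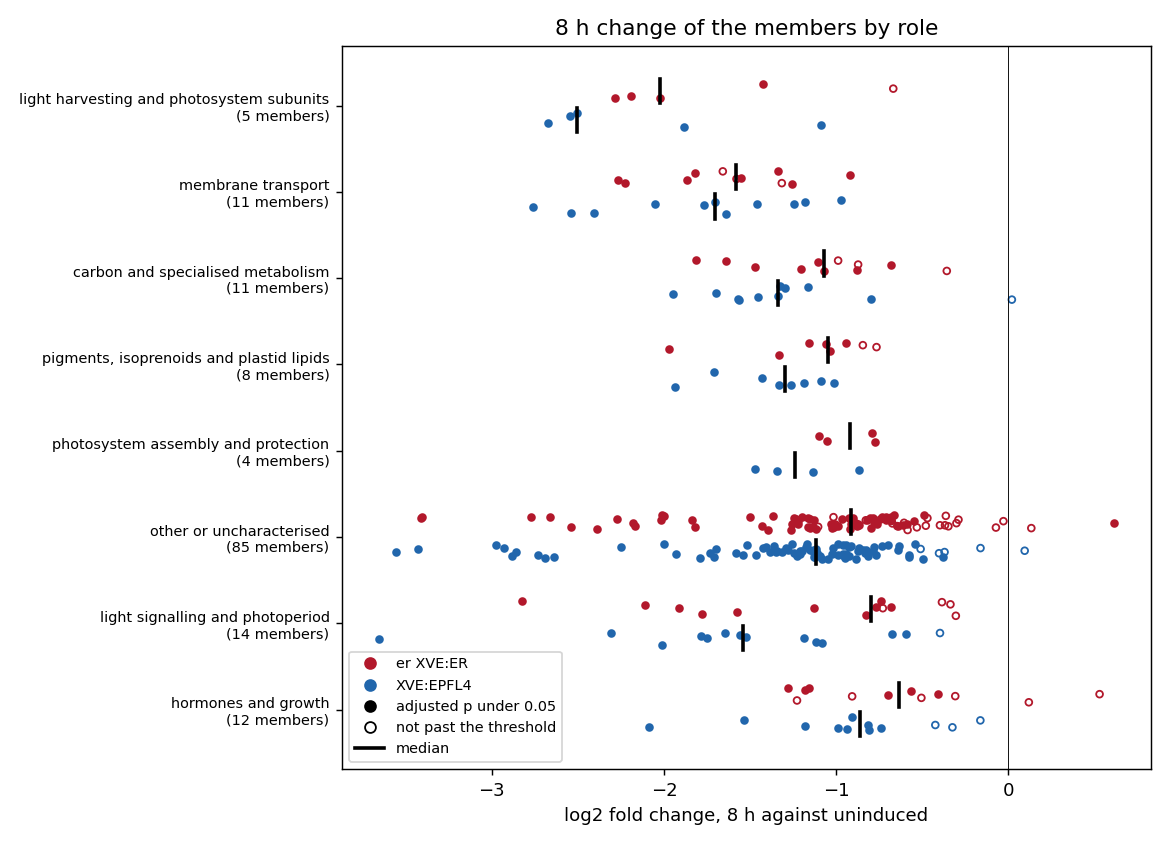
Log2 fold change at 8 h against uninduced for each member, by role, in *er XVE:ER* (red, upper band) and *XVE:EPFL4* (blue, lower band); filled points passed the test (adjusted p under 0.05) and black bars are medians. Light-harvesting and photosystem subunits have the lowest medians (-2.02 in *er XVE:ER* and -2.51 in *XVE:EPFL4*), and hormones and growth the highest (-0.63 in *er XVE:ER* and -0.86 in *XVE:EPFL4*).

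The largest fold changes in *er XVE:ER* were among 85 members with other or no named roles, of which 63 were lower and 1 higher in *er XVE:ER* and 80 lower in *XVE:EPFL4*. *AT3G24463*, annotated as a nuclear transport factor 2 family protein, had 3.3, 1.25, 1.84 and 2.00 CPM in *er XVE:ER* at 8 h, against 25.6, 27.1, 29.0 and 6.21 CPM uninduced. In *XVE:EPFL4*, *AT3G24463* had 1.46, 1.57, 1.32 and 1.89 CPM at 8 h, against 17.7, 17.5, 19.0 and 14.2 CPM uninduced. It lies within the span of *AT3G24460*, a member annotated as a serinc-domain protein, on the same strand, so reads of the pair may not be separated. Overlap of their exons was not examined. The log2 fold change was -3.41 ± 0.44 for *AT3G24463* and -3.41 ± 0.58 for *AT3G24460* in *er XVE:ER*, and -3.55 ± 0.17 for *AT3G24463* and -3.43 ± 0.18 for *AT3G24460* in *XVE:EPFL4*. *AT5G35970*, annotated as a P-loop nucleoside triphosphate hydrolase, had 39.8, 85.1, 100 and 50.2 CPM in *er XVE:ER* at 8 h, against 455, 452, 444 and 215 CPM uninduced. In *XVE:EPFL4*, *AT5G35970* had 39.5, 66.6, 70.5 and 72.1 CPM at 8 h, against 450, 406, 387 and 441 CPM uninduced. Every 8 h library was below every uninduced one, and the change was -2.54 ± 0.30 in *er XVE:ER* and -2.86 ± 0.17 in *XVE:EPFL4*.

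*AT3G53830*, of the RCC1 family, had the smallest adjusted p in *er XVE:ER* among the members named here. It had 4.43, 5.30, 5.39 and 2.74 CPM in *er XVE:ER* at 8 h, against 34.2, 28.9, 23.8 and 32.2 CPM uninduced. In *XVE:EPFL4*, *AT3G53830* had 2.04, 5.76, 5.26 and 6.05 CPM at 8 h, against 30.1, 31.0, 37.6 and 33.1 CPM uninduced. Its log2 fold change was -2.77 ± 0.18 (SE) in *er XVE:ER* (edgeR's quasi-likelihood test, adjusted p = 9.58e-07) and -2.88 ± 0.23 in *XVE:EPFL4* (adjusted p = 3.33e-07). *AT1G13650*, an uncharacterized protein, had 16.1, 21.7, 16.3 and 18 CPM in *er XVE:ER* at 8 h, against 110, 121, 124 and 17.5 CPM uninduced. In *XVE:EPFL4*, *AT1G13650* had 13.5, 24.8, 13.9 and 13.8 CPM at 8 h, against 96.5, 87.0, 114 and 108 CPM uninduced. Uninduced replicate 4 of *er XVE:ER* was at the 8 h level, and the exact two-sided permutation p was 0.0857 in that line and 0.0286 in *XVE:EPFL4*. The model gave -2.39 ± 0.44 in *er XVE:ER* and -2.69 ± 0.21 in *XVE:EPFL4*.

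Of the other members named by the same rule, *UP6*, an uncharacterized protein, was at -2.66 ± 0.29 in *er XVE:ER* and -2.64 ± 0.23 in *XVE:EPFL4*. *AT2G32550*, an Rcd1-like protein, was at -2.02 ± 0.19 in *er XVE:ER* and -2.93 ± 0.21 in *XVE:EPFL4*. *AT5G44050*, a MATE efflux protein, was at -2.22 ± 0.29 in *er XVE:ER* and -2.41 ± 0.15 in *XVE:EPFL4*. *AT5G48540*, related to receptor-like kinases, was at -1.84 ± 0.25 in *er XVE:ER* and -2.73 ± 0.19 in *XVE:EPFL4*. *AT5G48490*, annotated as a lipid-transfer protein, was at -1.82 ± 0.37 in *er XVE:ER* and -2.98 ± 0.22 in *XVE:EPFL4*. Another protein of that annotation, *AT4G33550*, was at -2.27 ± 0.32 in *er XVE:ER* and -0.81 ± 0.26 in *XVE:EPFL4*. All 6 passed the test in both lines. The call of *AT4G33550* in *XVE:EPFL4* was lost without uninduced replicate 2, without 8 h replicate 4 and without replicate number 4 in every group (adjusted p up to 0.0871). At the edge of the choice, *MPK15* was at -0.92 ± 0.20 in *er XVE:ER* and -1.13 ± 0.06 in *XVE:EPFL4*, *AT3G10405* at -0.55 ± 0.18 in *er XVE:ER* and -0.70 ± 0.14 in *XVE:EPFL4*, and *CYP71B12* at -0.36 ± 0.26 (adjusted p = 0.359) in *er XVE:ER* and -1.33 ± 0.15 in *XVE:EPFL4*. *AT3G10405* lost its *er XVE:ER* call without uninduced replicate 1, 2, 3 or 4, without 8 h replicate 1, 2 or 3 and with only the groups compared (adjusted p up to 0.148), while *CYP71B12* passed without uninduced replicate 4.

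The 8 h changes were then compared between the lines by an interaction term, *er XVE:ER* minus *XVE:EPFL4*. Of 150 members 1 was lower and 3 were higher, where 0.756% of 20777 genes passed in either direction. The median difference of the members was 0.21, and 0.09 without replicate number 4 in every group. *XTH6* (AT5G65730), of the xyloglucan-modifying wall enzymes, had 40.2, 84.2, 101 and 77.9 CPM in *er XVE:ER* at 8 h, against 106, 124, 152 and 103 CPM uninduced. In *XVE:EPFL4*, *XTH6* had 54.6, 40.1, 36.9 and 41.7 CPM at 8 h, against 208, 164, 142 and 171 CPM uninduced. It was lower in both lines, at -0.70 ± 0.23 (SE) in *er XVE:ER* (edgeR's quasi-likelihood test, adjusted p = 0.0498) and -2.09 ± 0.17 in *XVE:EPFL4*, and the difference was 1.39 ± 0.30 (adjusted p = 0.0258). The *XTH6* call in *er XVE:ER* was lost with all 35 libraries, with only the groups compared, with no filter on low counts, and without uninduced replicate 1, 2 or 3 or 8 h replicate 2 or 4 (adjusted p up to 0.138). *IAA1* (AT4G14560), an auxin-inducible repressor of auxin signalling, had 7.54, 9.15, 8.45 and 9.39 CPM in *er XVE:ER* at 8 h, against 10.002, 11.2, 10.7 and 10.1 CPM uninduced. In *XVE:EPFL4*, *IAA1* had 5.45, 8.58, 8.45 and 7.60 CPM at 8 h, against 18.5, 16.6, 14.6 and 14.2 CPM uninduced. The lines were alike at 8 h and differed uninduced, where *er XVE:ER* was lower (-0.60 ± 0.14, adjusted p = 0.0433), and the difference of the 8 h changes was 0.88 ± 0.21 (adjusted p = 0.0472).

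*ADS1* (AT1G06080), an acyl lipid desaturase, was the member lower by this comparison. It had 5.15, 9.20, 9.51 and 9.43 CPM in *er XVE:ER* at 8 h, against 14.2, 19.3, 19.2 and 22.7 CPM uninduced. In *XVE:EPFL4*, *ADS1* had 12.5, 13.6, 12 and 14.2 CPM at 8 h, against 9.15, 11.4, 14.1 and 13.6 CPM uninduced. The groups were apart in *er XVE:ER* and overlapped in *XVE:EPFL4*. The change was -1.20 ± 0.24 (SE) in *er XVE:ER* (edgeR's quasi-likelihood test, adjusted p = 0.00388) and 0.02 ± 0.14 in *XVE:EPFL4* (adjusted p = 0.916), and the difference was -1.22 ± 0.28 (adjusted p = 0.0443). *AT2G29300*, annotated as an NAD(P)-binding protein and 17 bases from the member *AT2G29290*, had 33.1, 46.4, 38 and 60.4 CPM in *er XVE:ER* at 8 h, against 27.3, 27.5, 30.6 and 29.9 CPM uninduced. In *XVE:EPFL4*, *AT2G29300* had 37.6, 24.6, 17.7 and 21.9 CPM at 8 h, against 39.4, 32.3, 50.9 and 35.3 CPM uninduced. It was higher in *er XVE:ER* (0.61 ± 0.19, adjusted p = 0.0328) and lower in *XVE:EPFL4* (-0.73 ± 0.20, adjusted p = 0.00949), with a difference of 1.35 ± 0.29 (adjusted p = 0.0305). The call in *er XVE:ER* was lost with all 35 libraries in 1 fit (adjusted p = 0.324), with only the groups compared, and without uninduced replicate 1, 2 or 3 or 8 h replicate 2 or 4. The call in *XVE:EPFL4* was lost with all 35 libraries (adjusted p = 0.211) and without replicate number 4 in every group. In WT at 8 h it had 43.8, 3.99, 10.7 and 53.5 CPM, against 50.9, 36.8, 31.7 and 31.8 CPM uninduced.

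These 4 calls depended on the libraries and the fit. With uninduced replicate 4 and 8 h replicate 1 of *er XVE:ER* and 8 h replicate 1 of *XVE:EPFL4* left out, 33 members passed, 6 lower and 27 higher, among 421 lower and 755 higher over all genes. For *CAB2* the difference of the 8 h changes was 0.32, with a 95% interval of -1.41 to 2.05, which holds differences of either sign. Uninduced, 3 members differed between *er XVE:ER* and *XVE:EPFL4*, where 1.01% of genes did: *IAA1*, *AT5G64850* (-0.63 ± 0.13), a protein with a sorbin or SH3 annotation, and *MYB59* (0.72 ± 0.17), a MYB factor.

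WT at 8 h showed members whose low mean came from the low libraries alone. *HSPRO2* (AT2G40000), a stress-responsive gene named after a nematode resistance gene of sugar beet, had 487, 9.90, 87.8 and 388 CPM in WT at 8 h, against 276, 211, 273 and 270 CPM uninduced. Replicates 1 and 4 were above every uninduced library and replicates 2 and 3 below them. In *er XVE:ER* it had 276, 301, 272 and 306 CPM at 8 h, against 333, 276, 276 and 309 CPM uninduced (-0.07 ± 0.14). In *XVE:EPFL4*, *HSPRO2* had 78.3, 203, 177 and 221 CPM at 8 h, against 307, 331, 336 and 410 CPM uninduced, and it was lower (-1.11 ± 0.25). *TZF5* (AT5G44260), a tandem zinc finger protein, had 38.5, 1.13, 1.85 and 47.6 CPM in WT at 8 h, against 22.1, 13.8, 24.2 and 19.9 CPM uninduced. In *er XVE:ER* it had 2.44, 43.5, 52.7 and 29.2 CPM at 8 h, against 24.2, 21.7, 25.5 and 42.6 CPM uninduced. It moved in neither line by the test (0.13 ± 0.59 in *er XVE:ER* and 0.10 ± 0.34 in *XVE:EPFL4*). Both genes were chosen for this after their values were seen. Replicates 2 and 3 were the lowest pair of WT libraries at 8 h for 68 of 150 members, and replicate 1 was the lowest at 8 h in both *er XVE:ER* and *XVE:EPFL4* for 44. Both held for 38. The matching shares over all genes were not counted, and the WT libraries also chose the members.

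At 3 h few members passed the test in *er XVE:ER*, and more did in *XVE:EPFL4*. At 3 h *er XVE:ER* had 3 libraries, and over all genes 1430 were called there, against 4274 in *XVE:EPFL4*. In *er XVE:ER*, *RGL3* alone was lower (-0.95 ± 0.21, edgeR's quasi-likelihood test, adjusted p = 0.0199), where 2.53% of genes were. No member was called higher, where 4.51% of genes were. Members had been chosen as flat at 3 h in WT. Of 8465 other genes flat there with at least 5 CPM, 25 were lower and 28 higher in *er XVE:ER*. At an unadjusted p under 0.05, 13 members were higher and 5 lower in *er XVE:ER*, where 4581 of 20329 genes passed in either direction. DESeq2's Wald test called 1 member higher and 2 lower, where 1330 of 25485 genes were higher and 1036 lower. The median of the members was 0.11. In *XVE:EPFL4*, 32 members were lower, where 10% of genes were, and 11 were higher, where 11% were, with a median of -0.21. Of 8466 other genes flat at 3 h in WT, 402 were lower and 374 higher in *XVE:EPFL4*. With all 35 libraries in 1 fit, 4 members were higher in *er XVE:ER*, where 1549 of 20926 genes were. In *XVE:EPFL4*, 2 members were higher in that fit, where 1579 genes were. Without uninduced replicate 4 the *er XVE:ER* median was 0.03. The lowest at 3 h in *XVE:EPFL4* were the overlapping pair *AT3G24460* (-1.12 ± 0.16) and *AT3G24463* (-1.11 ± 0.15), and the highest was *AT5G40590*, a C1 domain protein (1.95 ± 0.34). By the measure used for WT, 85 members were within 0.25 of uninduced at 3 h in *er XVE:ER* and 74 in *XVE:EPFL4*. Of these, 73 in *er XVE:ER* and 68 in *XVE:EPFL4* were also at least 0.5 lower at 8 h. The shares of all genes that meet these limits in the 2 lines were not counted, so the counts are a description. From 3 h to 8 h, 106 members fell in *er XVE:ER*, where 5.71% of genes were lower, and 138 in *XVE:EPFL4*, where 14.8% were. The medians of that step were -1.10 in *er XVE:ER* and -1.0 in *XVE:EPFL4*.

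**Figure D5:**
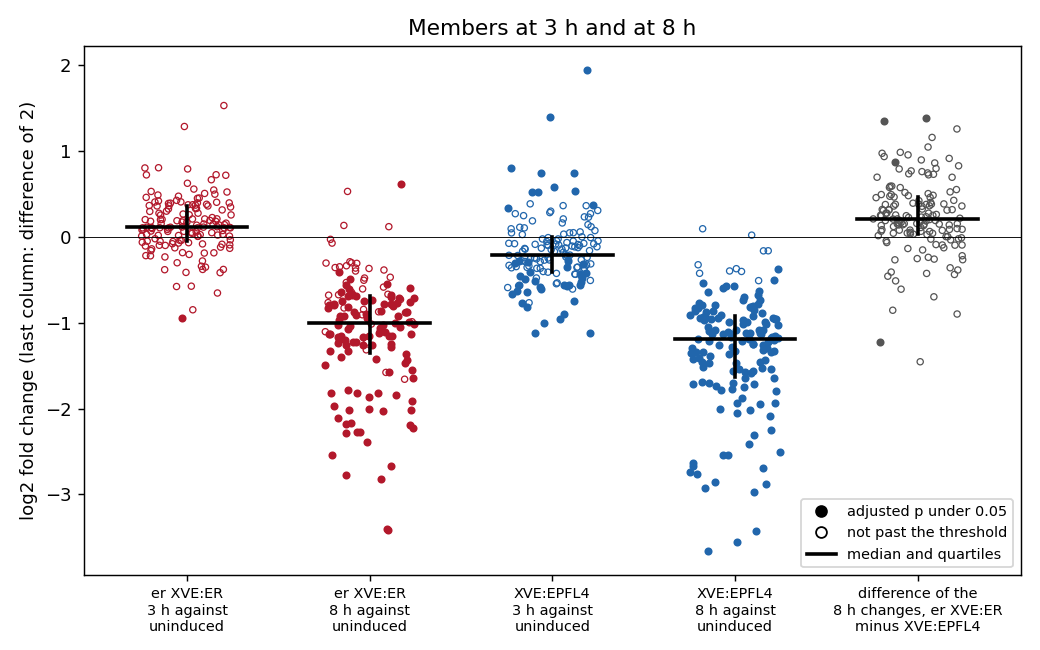
Log2 fold changes of the 150 members at 3 h and 8 h against uninduced in *er XVE:ER* (red) and *XVE:EPFL4* (blue), and the difference of the 8 h changes (grey); filled points passed the test and bars give the median and quartiles. Medians at 3 h are 0.11 in *er XVE:ER* and -0.21 in *XVE:EPFL4*, and at 8 h -1.0 in *er XVE:ER* and -1.18 in *XVE:EPFL4*.

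The members were also read as a share of the library. They took 0.709 to 1.52% of all counts in *er XVE:ER* at 8 h, against 3.3 to 3.43% uninduced. In *XVE:EPFL4* they took 0.689 to 1.35% at 8 h, against 3.12 to 3.47% uninduced. Such a share weighs the most abundant members most. In uninduced *er XVE:ER*, replicate 4 was the lowest library for 104 members, yet the members took 3.33% of its counts. Markers of other tissues were read beside these shares. Of 8 shoot epidermis and leaf markers, 1 was lower and 2 were higher in *er XVE:ER*, and 2 were lower and 2 higher in *XVE:EPFL4*. Of 5 root hair markers, 1 was lower in *er XVE:ER* and 5 in *XVE:EPFL4*. Their summed level was 18.3 to 61.5 CPM in *er XVE:ER* at 8 h, against 37.8 to 68.7 CPM uninduced, and 4.15 to 27.3 CPM in *XVE:EPFL4* at 8 h, against 39.1 to 61.3 CPM uninduced. Of 4 root endodermis markers, 3 were lower in *er XVE:ER* and 4 in *XVE:EPFL4*. Summed, these were at 49.5 to 69.6 CPM in *er XVE:ER* at 8 h, against 77.8 to 83.5 CPM uninduced, and at 39.5 to 66.4 CPM in *XVE:EPFL4* at 8 h, against 68.7 to 87.5 CPM uninduced. Of 3 guard cell markers, 1 was higher in each line, and their sum was 47.1 to 70.4 CPM in *er XVE:ER* at 8 h, against 41.7 to 53.3 CPM uninduced, and 40.8 to 52.0 CPM in *XVE:EPFL4* at 8 h, against 35 to 39.7 CPM uninduced. The part of these markers in the members' changes was not tested. On the chromosomes, 8 pairs of members were neighbours, among them *AT2G47485* and *NDT1*, 9 bases apart, and 31 members overlapped another annotated gene, 28 of them a coding one. Without a stated strand setting, reads of such overlapping genes may not be separated.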

How the data were processed

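RNA-seq of 35 libraries was analyzed. The authors mapped reads to TAIR10 (EnsemblPlants annotation) with STAR 2.7.11a. The files deposited by the authors hold, per library, 1 read count for every gene, with no normalization. Strand setting and treatment of multiply mapped reads are not given in the sources used here. Groups came from the sample labels. Counts of each line (11 libraries of *er XVE:ER*, 12 of *XVE:EPFL4*, or 23 for comparisons between them) were fitted in R 4.3.3 with edgeR 4.0.16: filterByExpr (minimum count 10, minimum total 15), TMM, glmQLFit and glmQLFTest, and p-values were adjusted by Benjamini-Hochberg across the whole table (threshold 0.05). DESeq2 1.42.0 was an alternative. SE was taken as the estimate over the root of its F statistic. CPM uses library totals. Permutation tests used mean log2 CPM with a prior count of 2. The procedure was tested on simulated data. Promoters were read from TAIR10.1.

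Members and gene lists were chosen with earlier results of these data known. The members described singly are the 10 lowest in WT, the 10 lowest in each line among called members whose groups did not overlap, those called higher, the 5 most abundant in WT, those in the pathway lists, those that differed between lines and the 3 at the edge of the choice. Others are marked or are examples of a role group, chosen after their values were seen. Each library held 18224765 to 25089853 counts.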

Additional observations from a re-analysis of the deposited data

Results flagged for a closer look

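In groups of 4, a library was marked where its gap to the nearest other library, as a share of the range of the group, exceeded the 95% critical value of Dixon's test. This was done for 184 groups (the 22 members with values per library and the members' mean), and 21 were marked, where chance marks about 1 in 20 groups. Replicate 4 of uninduced *er XVE:ER* was low by the members' mean log2(CPM + 1), 5.20 against 5.76 to 5.79 in the other libraries. It was also low for *CRD1* (1362 CPM), *AT5G35970* (215 CPM), *AT3G24463* (6.21 CPM), *AT1G13650* (17.5 CPM) and *PPT2* (11.6 CPM). Replicate 1 of *er XVE:ER* at 8 h was low for *CAB2* (137 CPM), *LHCB2.2* (103 CPM), *LHCB4.2* (352 CPM) and *ADS1* (5.15 CPM). Replicate 1 of *XVE:EPFL4* at 8 h was low for *AT5G35970* (39.5 CPM) and *CDF3* (6.58 CPM), and replicate 2 of that group was high for *AT1G13650* (24.8 CPM). In WT at 8 h, replicate 1 was low for *ADS1* (4.51 CPM).

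In WT at 3 h, replicate 3 was low for *CAB2* (6354 CPM), and replicate 4 was low for *CDF3* (27.5 CPM) and high for *IAA1* (22.1 CPM) and *AT2G29300* (85.0 CPM). In uninduced WT, *AT1G13650* was high in replicate 1 (162 CPM), *PPT2* low in replicate 3 (36.8 CPM) and *HSPRO2* low in replicate 2 (211 CPM).

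The 8 h change differed between *er XVE:ER* and *XVE:EPFL4* for 4 members by the interaction term (edgeR's quasi-likelihood test, adjusted p under 0.05). The differences on the log2 scale were 1.39 for *XTH6*, 1.35 for *AT2G29300*, 0.88 for *IAA1* and -1.22 for *ADS1*.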

How the results depend on the processing

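Counts of members lower at 8 h stayed within 1.5 times the reported ones under every alternative run: with libraries left out, 93 to 127 in *er XVE:ER* and 133 to 143 in *XVE:EPFL4*, and otherwise 94 to 117 in *er XVE:ER* and 130 to 141 in *XVE:EPFL4*. The settings that left out together the libraries that stood apart were chosen after seeing the data. The median changes at 8 h were -1.06 to -0.94 in *er XVE:ER* and -1.29 to -1.16 in *XVE:EPFL4*. The median at 3 h in *er XVE:ER* (0.11) was 0.03 to 0.19, and that of the difference (0.21) was 0.09 to 0.31. Members chosen again numbered 87 to 135 with WT libraries left out, 87 without 3 h replicate 4. At 3 h, the count lower in *er XVE:ER* (1) was 2 with only the groups compared, 2 with DESeq2's Wald test and 0 to 4 with libraries left out. In *XVE:EPFL4* (32) it was 14 with all 35 libraries in 1 fit, 69 with only the groups compared, 11 without replicate number 4 in every group and 16 to 26 with single libraries left out. Members higher at 3 h numbered 0 to 4 in *er XVE:ER* (0) and 2 to 14 in *XVE:EPFL4* (11), and at 8 h in *er XVE:ER* (1) 0 to 3. From 3 h to 8 h in *er XVE:ER* the count lower (106) was 70 to 105 with single libraries left out, being 70 without 3 h replicate 2, and 115 without replicate number 4 in every group. For the difference of the 8 h changes the count in either direction (4) was 0 with all 35 libraries, 0 with only the groups compared, 7 with DESeq2 and 0 to 33 with libraries left out. Of 96 results for these 4 members under the alternatives, 55 lost the call and all 96 kept their direction. Uninduced, the count of 3 was 0 with only the groups compared, 5 with DESeq2 and 0 to 5 with libraries left out. Of 464 results for single named members at 8 h in *er XVE:ER*, 30 (over 4 genes) lost the call and 5 gained it, and of 435 in *XVE:EPFL4*, 5 (over 2 genes) lost it. *ADS1* in *XVE:EPFL4* changed sign, at -0.08 to 0.09, with libraries left out. The causes were not tested.

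Over all genes, called counts that moved by over 1.5 times were 1277 to 2838 for *er XVE:ER* at 3 h (1430), up to 6784 for *XVE:EPFL4* at 3 h (4274), up to 4536 for *er XVE:ER* from 3 h to 8 h (2568), 17 to 366 for the difference (157) and 85 to 466 uninduced (210). With libraries left out, they were 441 to 3210 for *er XVE:ER* at 3 h, 2411 to 3466 for *XVE:EPFL4* at 3 h, 961 to 3776 for *er XVE:ER* and 4165 to 7287 for *XVE:EPFL4* from 3 h to 8 h (6348), 83 to 1176 for the difference and 85 to 410 uninduced.

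The correlation of deviations from the group mean was -0.46 to 0.449 between same-numbered libraries. Differently numbered libraries were not compared, so whether replicate numbers pair the libraries was not tested. With the replicate number as a block, 114 members were lower at 8 h in *er XVE:ER* and 140 in *XVE:EPFL4*, 28 were lower at 3 h in *XVE:EPFL4*, 119 fell from 3 h to 8 h in *er XVE:ER* and 6 differed uninduced. The lowest mean of a member in uninduced WT was 5.13 CPM.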
